A study of Mus musculus with 18 samples.

Results

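Bulk RNA was sequenced from heart tissue of mice in 18 libraries, 6 labelled control, 6 labelled MI (myocardial infarction) and 6 labelled HXP treatment. By the series title, the setting of the HXP treatment is an acute infarction model in mice. The labels give no strain, sex, age, dose or time, do not spell out HXP, and do not say whether each HXP mouse had an infarct or whether its tissue held scar. Described here are the HXP hearts of lower Col1a1 level. Col1a1 encodes the main chain of fibrillar collagen I. The libraries are those titled HXP in which it stood below 100 FPKM (fragments per length of exon and per sequencing depth). The members were thus chosen by their measured Col1a1 level, and the rule picked HXP 4, HXP 5 and HXP 6, which are 3 of the 6 HXP libraries and 3 of all 18, and they are set against the 6 controls. The labels do not say that the libraries of a group came from separate mice, so the p-values below measure only the spread between these libraries. Nothing in the labels other than the replicate number separates these 3 from HXP 1, 2 and 3.

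Col1a1 (ENSMUSG00000001506, chromosome 11, 94936224 to 94953042 on GRCm38) stood at 50.7 (HXP 4), 41.3 (HXP 5) and 2.29 FPKM (HXP 6). It lay at 9.25 to 16.7 FPKM in the 6 controls (median 13.3), at 185, 186 and 345 FPKM in HXP 1, 2 and 3, and at 74.1 to 668 FPKM in the 6 MI libraries (median 219). HXP 4 was thus the library just inside the limit, and HXP 1 and HXP 2 were the ones just outside it. Because this value chose the libraries, Col1a1 and the lists of matrix, fibroblast and TGF-beta genes are described without a test, and the p-values of all other genes do not cover the choice. One MI library also lay below 100 FPKM, so a low Col1a1 level did not occur in HXP hearts alone. The 3 chosen libraries were not alike: HXP 4 and HXP 5 stood above every control and HXP 6 stood below every control. All were heart by their markers, with Myh6, the adult alpha myosin heavy chain, at 3270.4, 2429.7 and 2527 FPKM against 2496 to 3565 FPKM in control. Depth, worked out from the value of 1 read, was 75.8 to 81.1 M reads per library, with 9888 to 11095 genes at 1 FPKM or more in HXP 4, 5 and 6 and 10516 to 10934 in control.

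After an infarct, fibroblasts fill the lost muscle with collagen and other matrix, and matrix transcripts are commonly high in scar. The surviving muscle cells draw nearly all of their energy from mitochondria, whose respiratory chain is built from many nuclear subunits and a few made by the mitochondrion's own ribosomes. Stressed heart muscle commonly raises natriuretic peptides and the fetal beta myosin. In whole tissue, fewer cells of a type and less RNA per cell cannot be told apart, and this holds for every list of markers below.

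Matrix genes divided the 3 hearts in the same way as Col1a1. Of the 40 genes of the matrix list 37 passed the filter (0.5 FPKM or more on average across the 9 libraries), and HXP 4 stood above all controls for 34 of them and HXP 5 for 35. Over all 12749 genes that passed, HXP 4 stood above every control for 23.5% and HXP 5 for 28.7%. HXP 6 stood below all controls for 31 of the 37, beside 41.0% of all genes. The median difference from the control mean over the 37 genes, on the log2(FPKM + 1) scale, was 1.33 (HXP 4), 1.49 (HXP 5) and -0.71 (HXP 6). The mean of the 40 genes on that scale was 3.71 (HXP 4), 3.79 (HXP 5) and 1.57 (HXP 6). It ran from 2.05 to 2.55 in control, 4.74 to 6.33 in HXP 1, 2 and 3 and 3.97 to 6.64 in MI. HXP 4 and HXP 5 thus lay nearer to the lowest MI library than to any control. Col3a1, the other main fibrillar collagen, stood at 100.4 (HXP 4), 129 (HXP 5) and 6.97 FPKM (HXP 6), against 17.7 to 30.8 FPKM in the 6 controls (median 23.3) and 338 to 803 FPKM in HXP 1, 2 and 3. Postn, which encodes the wound matrix protein periostin, stood at 21.8, 36 and 2.12 FPKM in the same order, against 2.31 to 4.14 FPKM in control. Timp1, an inhibitor of matrix metalloproteinases, stood at 5.16, 10.3 and 0.528 FPKM against 0.851 to 1.85 FPKM in control. Comp, a cartilage matrix gene, stood at 34.7, 8.83 and 0.391 FPKM against 0.279 to 1.5 FPKM in control. In HXP 4 and HXP 5 matrix transcripts were therefore above control and below HXP 1, 2 and 3 for each of these genes, and in HXP 6 they were at or below control.

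**Figure D1:**
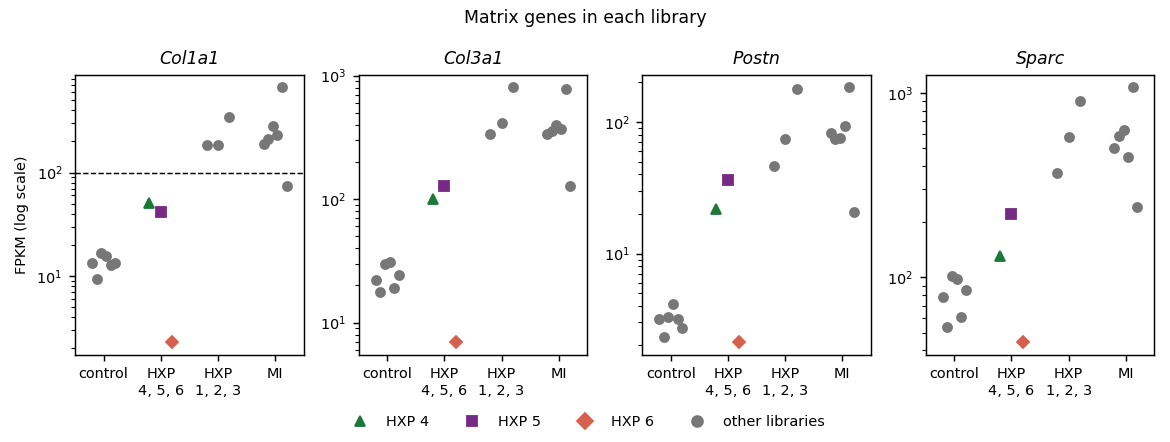
Level in FPKM (log scale) of 4 matrix genes in each library, 1 point per library, by group; the dashed line marks the limit of 100 FPKM for Col1a1. HXP 4 and HXP 5 lie between control and HXP 1, 2 and 3, while HXP 6, at 2.29 FPKM of Col1a1, lies below the controls for all 4 genes.

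The fibroblast list followed the same order. Of its 19 genes 18 passed the filter, HXP 4 and HXP 5 each stood above all controls for 13, and HXP 6 stood below all controls for 14. Over all genes these shares were 23.5% (HXP 4), 28.7% (HXP 5) and 41.0% (HXP 6). HXP 5 also stood below all controls for 3 of the 18. The mean of the list on the log2(FPKM + 1) scale was 3.33 (HXP 4), 3.48 (HXP 5) and 2.17 (HXP 6), against 2.61 to 3.01 in control, 4.05 to 5.15 in HXP 1, 2 and 3 and 3.49 to 4.83 in MI. Pdgfra, a receptor that marks resident fibroblasts, stood at 5.32, 5.24 and 2.47 FPKM against 2.85 to 3.89 FPKM in control. Tcf21, a transcription factor of resident fibroblasts, did not follow it, at 2.7, 0.911 and 0.87 FPKM against 2.37 to 3.53 FPKM in control. Among the 19 genes of TGF-beta signalling, all of which passed the filter, HXP 4 stood above all controls for 11, HXP 5 stood above them for 10, and HXP 6 stood below them for 14. In the other direction HXP 4 stood below all controls for 3 members, HXP 5 stood below them for 4, and HXP 6 stood above them for 1. Over all genes HXP 4 stood below every control for 20.1% and HXP 5 for 24.1%, and HXP 6 stood above for 9.05%. These counts were thus no larger than the shares of all genes. Id1, a target of the related BMP pathway, stood at 7.56, 5.31 and 4.04 FPKM against 10.3 to 31.1 FPKM in control.

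Most genes called in HXP 4, 5 and 6 together were lower than in control. By limma on log2(FPKM + 1), with a Benjamini-Hochberg adjusted p below 0.05 as the threshold for calling a gene, 744 of 12749 genes differed from control (5.84%). Of these 694 were lower (5.44%) and 50 were higher (0.392%), and 180 of the lower and 4 of the higher ones differed by at least 2-fold. The counts of called genes in each list below stand against these shares. The median log2 fold change over all genes was -0.01. Without regard to the test, all 3 libraries lay below all 6 controls for 1121 genes (8.79%) and above them for 206 (1.62%). The 3 libraries did not share the falls evenly: HXP 6 held the lowest value for 525 of the 694 lower genes and HXP 4 the highest of the 3 for 588. Scaling to non-mitochondrial FPKM gave 462 lower and 220 higher genes, so the higher share of calls was 6.72% as deposited and 32.3% after that scaling. Quantile normalization gave 728 lower and 248 higher genes, with a higher share of 25.4%.

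Single libraries set the balance of these counts. Without HXP 6 the fit called 359 higher genes (2.80% of 12800) and 428 lower ones (3.34%), and 398 of the 694 lower genes were called again. Without HXP 5 it called 8 higher and 176 lower genes, and without HXP 4 55 and 1472. Leaving out 1 control at a time gave 367 to 595 calls in all, and the total moved by more than 1.5 times without control 3 (367), control 4 (400), control 5 (459) or control 6 (449). The numbers in the deposited library names fall into 3 separate ranges, called runs here, and what they stand for is not stated. HXP 4 and HXP 6 share a run with control 1, and HXP 5 shares one with control 3, 4 and 6. With the run as a covariate 60 genes were called, 7 higher and 53 lower. Within the run of HXP 4, HXP 6 and control 1 limma called none, with 239 genes at an unadjusted p below 0.05 and 1 residual degree of freedom. Within the run of HXP 5 and control 3, 4 and 6 it called 227 higher and 723 lower genes, where HXP 5 is assumed to vary like the controls.

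The lower genes were richer in G and C than the rest. GC content was known for 12733 of the 12749 genes, and its median was 57.7% among the lower genes, 49.5% among the higher ones and 50.6% over all genes. Exon length differed too, with medians of 2504 bases among the lower genes, 3648 among the higher ones and 4048 over all. In the 432 genes of 60% GC or more, with a mean of at least 1 FPKM, the median difference from the control mean was -0.19 (HXP 4), -0.67 (HXP 5) and -1.06 (HXP 6) on the log2 scale. Over the same genes single controls lay between -0.17 and 0.13, HXP 1, 2 and 3 between 0.17 and 0.27, and MI between 0.15 and 0.61. In the 1721 genes of 40% to 45% GC it was 0.04, 0.10 and 0.01 in HXP 4, 5 and 6. Where a smooth trend with GC content was removed from every library, a setting added after the data were seen, 400 genes were lower (3.14% of 12733) and 136 higher (1.07%), a higher share of 25.4%. Of the 694 lower genes 374 (53.9%) were called again after that correction, and of the 50 higher ones 35 (70%). What part the trend with GC content has in the fall of any single gene was not tested, and the called genes below that missed the threshold after the correction are named as such.

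**Figure D2:**
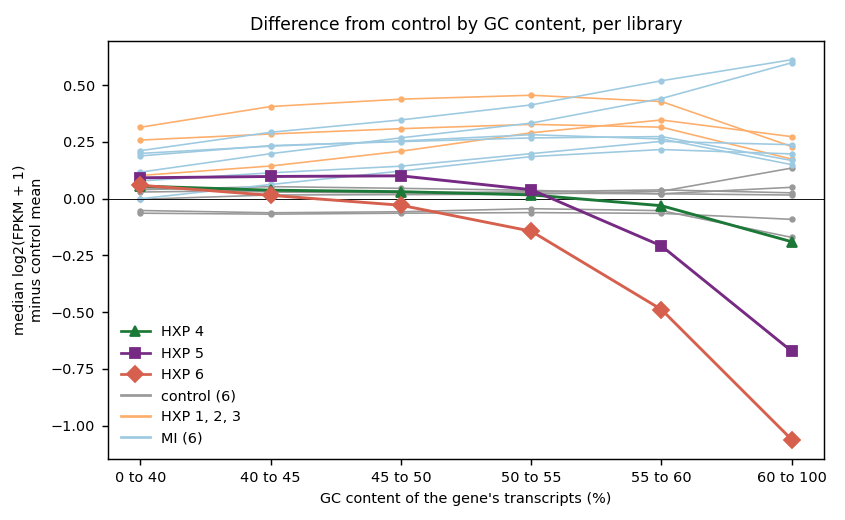
Median difference of log2(FPKM + 1) from the control mean for genes binned by GC content, 1 line per library. HXP 6 and HXP 5 drop to -1.06 and -0.67 in the bin of 60% GC and above and HXP 4 drops to -0.19, while the controls end between -0.17 and 0.13 and no MI library or HXP 1, 2 or 3 falls below 0.15 there.

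To show genes from the far ends of that contrast, the central 90 coding bases are printed for 1 lower gene and 2 higher genes. They are the gene of highest GC content among the 10 lower genes named by rule and the pair of lowest GC content among the 10 higher ones. They were thus picked as extremes and are not typical: the higher genes Hgs and Trex1 are at 58.1% GC and the lower gene Hopx is at 46.4%. The letters come from the longest protein-coding transcript of GENCODE M21 on GRCm38, run 5′ to 3′, and carry G and C in capitals.
Mif: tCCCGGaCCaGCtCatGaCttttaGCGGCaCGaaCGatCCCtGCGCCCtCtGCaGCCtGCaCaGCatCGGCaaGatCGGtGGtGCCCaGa
Col4a3bp: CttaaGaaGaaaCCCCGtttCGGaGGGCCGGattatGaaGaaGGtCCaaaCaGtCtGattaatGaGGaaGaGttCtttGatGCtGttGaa
Bhlhb9: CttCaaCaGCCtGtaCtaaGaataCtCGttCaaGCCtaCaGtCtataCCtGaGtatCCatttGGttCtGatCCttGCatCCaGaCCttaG
Of these 90 bases 56 are G or C in Mif, which was lower, and 39 in each of Col4a3bp and Bhlhb9, both higher. Over the whole coding sequence the GC content is 60.9% in Mif, 44% in Col4a3bp and 42.9% in Bhlhb9.

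Subunits of the mitochondrial respiratory chain gave more lower genes than any other list. Of 39 nuclear genes of oxidative phosphorylation, all above the filter, 14 fell and none rose, against 5.44% of all genes lower. The median log2 fold change of the 39 was -0.20, and after GC correction 9 were called lower. All 3 libraries lay below all controls for 15 of the 39. The mean of the list on the log2 scale was 7.26, 7.14 and 7.15 in HXP 4, 5 and 6, below every control (7.53 to 7.71). HXP 4 lay below every control for 30 of the 39 members and above for 0, against 20.1% of all genes below. HXP 5 lay below for 19 and above for 4, against 24.1% of all genes below. HXP 6 lay below for 18 and above for 11, against 41.0% of all genes below and 9.05% above, so its members were divided. Across the called members log2 fold changes ran from -3.40 to -0.31.

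Uqcrq, a small subunit of complex III (ENSMUSG00000044894, chromosome 11, 53427922 to 53430831), had the lowest log2 fold change of the genes named by rule. It stood at 61.2 (HXP 4), 10.2 (HXP 5) and 6.53 FPKM (HXP 6), against 156 to 199 FPKM in the 6 controls (median 188), so that no library of the 3 came near the control range. Its log2 change came to -3.40 ± 0.52 SE (limma adjusted p of 0.00723, and 0.00597 after GC correction). It was -2.80 without HXP 6, -3.03 within the run of HXP 4 and 6 and -4.11 within that of HXP 5. In hearts with more matrix Uqcrq stood at 121, 69 and 41.7 FPKM in HXP 1, 2 and 3, and at 82.9 to 212 FPKM in the 6 MI libraries (median 132). Ndufs7, a core subunit of complex I, stood at 73.8, 22 and 17.6 FPKM in HXP 4, 5 and 6, against 128 to 150.5 FPKM in the 6 controls (median 135) (a log2 change of -2.12 ± 0.35 SE at a limma adjusted p of 0.00981, and 0.00781 after GC correction). Cox6a2, the heart and muscle form of a cytochrome c oxidase subunit, stood at 815, 184 and 116 FPKM against 1032 to 1449 FPKM in control (a log2 change of -2.18 ± 0.48 SE at a limma adjusted p of 0.0281), and its call was lost without any 1 control or without HXP 5 or HXP 6 (0.0526 to 0.123). For these 3 genes HXP 5 and HXP 6 lay far below HXP 4, and HXP 4 itself lay below every control.

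Atp5g3 and Ndufb8 differed little among the 3 hearts, and several other called subunits varied more. Atp5g3, which encodes the membrane ring subunit c of ATP synthase (ENSMUSG00000018770, chromosome 2, 73908447 to 73911326), stood at 223 (HXP 4), 205 (HXP 5) and 222 FPKM (HXP 6), against 346 to 398 FPKM in the 6 controls (median 369). Its log2 fold change of -0.77 ± 0.07 SE, at a limma adjusted p of 0.00154, was -0.80 after GC correction, and it was called without each library in turn and with the run as a covariate (limma adjusted p = 0.0308). At a GC content of 49.3% this gene lies below the median of all genes. Ndufb8, a complex I subunit, stood at 50.1, 47.4 and 54.4 FPKM against 73.7 to 85.7 FPKM in control (a log2 change of -0.63 ± 0.08 SE at a limma adjusted p of 0.00245). Ndufc2 was uneven, at 66.9, 36.8 and 34 FPKM against 93.7 to 112 FPKM. Cox4i1, a structural subunit of cytochrome c oxidase, was lowest in HXP 4, at 354, 508 and 538 FPKM against 649.6 to 754 FPKM (a log2 change of -0.61 ± 0.12 SE at a limma adjusted p of 0.0205, but 0.141 after GC correction). Ndufc2 (-1.22), Ndufa2 (-1.03), Cox5b (-1.24), Atp5d (-0.84), Ndufs3 (-0.42), Uqcrc1 (-0.41), Atp5g1 (-0.32) and Cyc1 (-0.31) made up the 14 by their log2 fold changes. After GC correction the adjusted p missed the threshold for Uqcrc1, Cox4i1, Atp5d, Cyc1 and Atp5g1, at 0.0502 to 0.48.

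The number of called subunits rested most on HXP 5, without which 4 of the 39 were called. Leaving out control 3 gave 7 and each other library gave 10 to 13, and with the run as a covariate 1 passed, Atp5g3. Scaling to non-mitochondrial FPKM gave 9. Among the members that did not pass, chosen here after their values were seen, Cox7b and Ndufa4, of complex IV, and Uqcrb, of complex III, had log2 fold changes of 0.12, 0.11 and 0.09 (limma adjusted p = 0.619, 0.536 and 0.634).

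**Figure D3:**
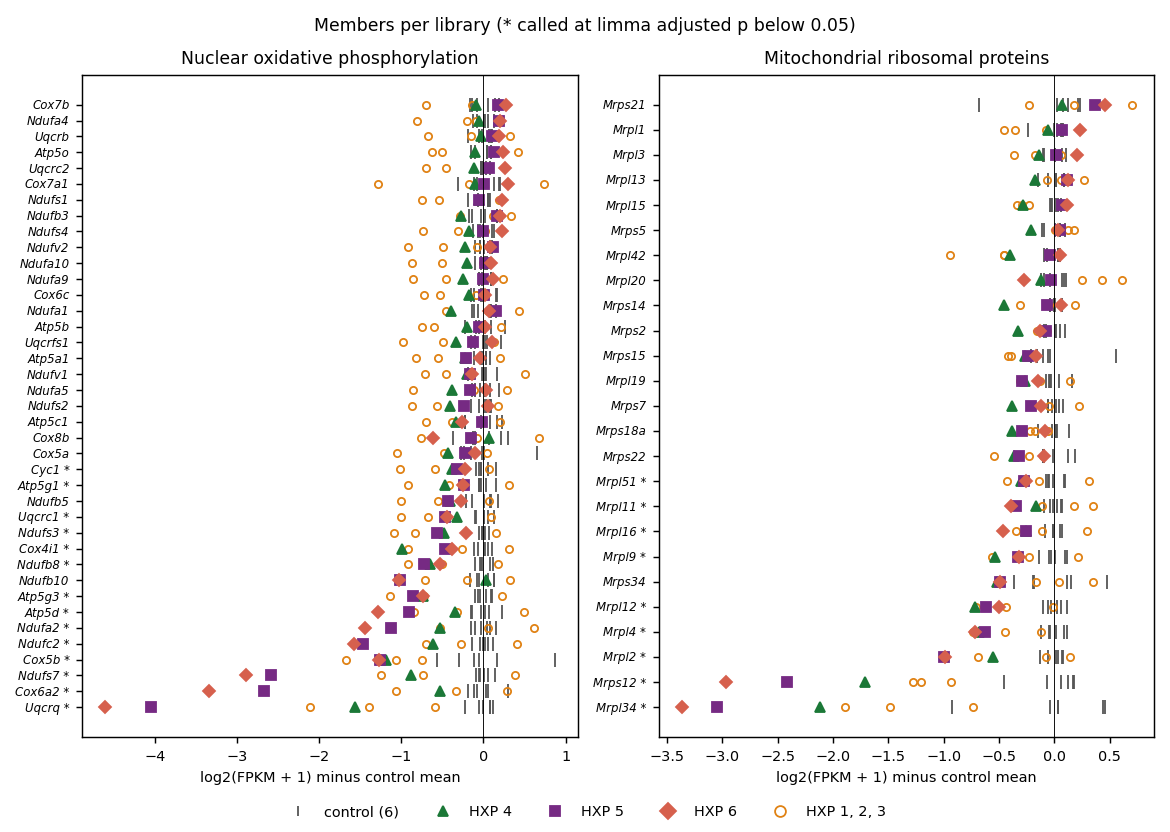
Difference of log2(FPKM + 1) from the control mean for every member of 2 mitochondrial lists, by library, with members sorted by fold change and called members starred. In HXP 4, 5 and 6 a few members, with Uqcrq at -3.40 and Mrpl34 at -2.85, fall far below the control ticks while most stay near them.

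The ribosome of the mitochondrion, which makes the subunits encoded there, also had lower members. Of 25 genes of mitochondrial ribosomal proteins 9 fell and none rose (median log2 fold change -0.24), against 5.44% of all genes lower. There were 5 lower after GC correction (3.14% of all genes), 5 after scaling to non-mitochondrial FPKM, 5 without control 3, control 5 or HXP 5, and 6 to 8 without any other library. Mrpl4, Mrpl11, Mrpl12 and Mrpl51 were the members that missed the threshold after GC correction. Mrps12, a protein of the small subunit, stood at 5.73 (HXP 4), 3.14 (HXP 5) and 1.82 FPKM (HXP 6), against 15.1 to 23.9 FPKM in the 6 controls (median 22.5) (a log2 change of -2.36 ± 0.24 SE at a limma adjusted p of 0.00185, and 0.00052 after GC correction). Mrpl34, of the large subunit (ENSMUSG00000034880, chromosome 8, 71464959 to 71465747), stood at 11.5, 5.54 and 4.25 FPKM against 27.6 to 73.3 FPKM in control (a log2 change of -2.85 ± 0.33 SE at a limma adjusted p of 0.00233). Mrpl4 was even across the 3 hearts, at 14.1, 14.7 and 13.8 FPKM against 21.4 to 25.3 FPKM (a log2 change of -0.68 ± 0.07 SE at a limma adjusted p of 0.0019), but at 59.95% GC it lost its call after GC correction (limma adjusted p = 0.378). These 3 were called without each library in turn and with the run as a covariate. Mrpl53, a large-subunit gene outside the list (ENSMUSG00000030037, chromosome 6, 83109040 to 83109939), stood at 3.56, 0.62 and 0.33 FPKM against 11.7 to 44.7 FPKM in the 6 controls (median 13.6) (a log2 change of -3.01 ± 0.47 SE at a limma adjusted p of 0.00747). Its span overlaps that of the predicted gene Gm42688 on the same strand, so the 2 may share reads. Romo1, a small inner membrane protein gene (ENSMUSG00000067847, chromosome 2, 156144039 to 156145797), stood at 10.2, 3.04 and 2.21 FPKM against 26.6 to 31.3 FPKM (a log2 change of -2.48 ± 0.31 SE at a limma adjusted p of 0.00322).

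The other lists of energy metabolism had 0 to 2 called genes each. Of 20 genes of the TCA cycle and pyruvate dehydrogenase 2 fell, against 5.44% of all genes, and 1 was called after GC correction. They were Sdhb, the iron-sulfur subunit of succinate dehydrogenase, at 218, 212 and 212 FPKM against 263 to 313 FPKM (a log2 change of -0.42 ± 0.07 SE at a limma adjusted p of 0.0122), and Idh3b, at 133, 126 and 139.8 FPKM against 159 to 183 FPKM (a log2 change of -0.33 ± 0.07 SE at a limma adjusted p of 0.0258). Sdhb lost its call without HXP 5 (0.0588), and Idh3b lost it after GC correction (0.0709) and without control 3, 4 or 6 or HXP 5 (0.0539 to 0.11). HXP 4, 5 and 6 lay below every control for 15, 10 and 4 of the 20 genes, against 20.1%, 24.1% and 41.0% of all genes. They lay above every control for 1, 1 and 9. None of 28 genes of fatty acid uptake and oxidation passed by limma, with a median log2 fold change of -0.14. Without HXP 6, 3 were called lower, against 3.34% of all genes in that fit. HXP 4, 5 and 6 lay below every control for 11, 22 and 6 of the 28, and above for 1, 0 and 5. The lowest adjusted p among the 28 genes belonged to the fatty acid transporter gene Slc27a1 (19, 9.01 and 10 FPKM against 17 to 26.2 FPKM, a log2 change of -0.78 ± 0.21 SE at a limma adjusted p of 0.0585). Of 15 transcripts made from the mitochondrial genome 1 rose, mt-Nd4l, a complex I subunit, at 15888, 14615 and 14757 FPKM against 10953 to 13222 FPKM (a log2 change of 0.34 ± 0.08 SE at a limma adjusted p of 0.0329). It lost the call after GC correction (limma adjusted p = 0.139) and without control 2, 3, 4 or 5 or HXP 4, 5 or 6 (0.0549 to 0.103). Mitochondrial transcripts took 31.3% to 36.8% of recovered reads in the 3 hearts and 29.9% to 34.7% in control. The share of mitochondrial transcripts thus lay within or above its control range while these nuclear subunits fell. Of 22 glycolysis genes 1 fell, the liver-type phosphofructokinase gene Pfkl (14.1, 11 and 9.88 FPKM against 16 to 17.1 FPKM, a log2 change of -0.49 ± 0.10 SE at a limma adjusted p of 0.0189), which lost its call without HXP 5 (0.0868) and after GC correction (0.065).

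Replication-dependent histone genes, whose messages end in a stem-loop in place of a poly(A) tail, had 3 lower members. Of 21 in the files 9 passed the filter, and the 3 that fell were also called after GC correction. Hist1h4h, a histone H4 gene (ENSMUSG00000060981, chromosome 13, 23531050 to 23531519), stood at 1.07 (HXP 4), 0.247 (HXP 5) and 0.0277 FPKM (HXP 6), against 5.39 to 18.1 FPKM in the 6 controls (median 12.9). Every one of the 3 values lay below the lowest control. The log2 change came to -3.22 ± 0.34 SE (limma adjusted p of 0.00186, and 0.00119 after GC correction), and it was called without each library in turn and with the run as a covariate (0.0349). It stood at 4.79, 1.18 and 1.26 FPKM in HXP 1, 2 and 3 and at 2.77 to 25.2 FPKM in the 6 MI libraries (median 9.01). Hist1h2bc, a histone H2B gene, stood at 13.5, 6.07 and 3.82 FPKM against 19.2 to 43.4 FPKM in control (a log2 change of -1.97 ± 0.33 SE at a limma adjusted p of 0.00994), and Hist1h4i, another H4 gene, at 0.641, 0.426 and 0.215 FPKM against 1.08 to 3.99 FPKM (a log2 change of -1.24 ± 0.24 SE at a limma adjusted p of 0.0189). Both lost the call without HXP 5 (0.0553 and 0.0781). Slbp, whose product binds the histone stem-loop, stood at 1.03, 1.01 and 0.947 FPKM against 1.1 to 1.41 FPKM and did not pass (a log2 change of -0.20 ± 0.07 SE at a limma adjusted p of 0.151). Histone genes are near-identical copies of each other, so reads could be split among them in ways the values do not show.

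Atf5, a transcription factor of the integrated stress response (ENSMUSG00000038539, chromosome 7, 44812256 to 44816658), was low in all 3 hearts. It stood at 3.58 (HXP 4), 1.31 (HXP 5) and 4.66 FPKM (HXP 6), against 13 to 21.7 FPKM in the 6 controls (median 16) (a log2 change of -2.13 ± 0.26 SE at a limma adjusted p of 0.00258, and 0.0151 after GC correction). HXP 1, 2 and 3 stood higher, at 22.7, 26.3 and 31.5 FPKM, and MI ran from 6.46 to 60.7 FPKM. It was called without each library in turn and with the run as a covariate (0.0349). It was the 1 called gene of 15 members of that list above the filter. Atf4, the central factor of that response, stood at 14.7, 19.5 and 12.7 FPKM against 15.6 to 21.5 FPKM (log2 fold change -0.19, limma adjusted p = 0.484).

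Immediate early genes, which cells switch on within minutes of a stimulus or of handling, had 4 lower members of 24 above the filter (median log2 fold change -0.13), against 5.44% of all genes lower. After GC correction 2 were lower and 1 was higher, Fosl1, an AP-1 subunit, against 3.14% and 1.07% of all genes. Ier2 stood at 3.28, 1.05 and 0.342 FPKM in HXP 4, 5 and 6 against 3.75 to 9.88 FPKM in the 6 controls (median 6.01) (a log2 change of -1.65 ± 0.34 SE at a limma adjusted p of 0.0215). Jun, a subunit of the AP-1 factor, stood at 9.29, 6.81 and 4.12 FPKM against 10.8 to 24.1 FPKM (a log2 change of -1.21 ± 0.25 SE at a limma adjusted p of 0.0226). Junb, another AP-1 subunit, stood at 0.979, 0.157 and 0.124 FPKM against 1.61 to 7.7 FPKM (a log2 change of -1.64 ± 0.38 SE at a limma adjusted p of 0.0343). Klf2, a flow-responsive endothelial factor, stood at 10.4, 7.59 and 4.72 FPKM against 10.4 to 18.6 FPKM (a log2 change of -0.95 ± 0.22 SE at a limma adjusted p of 0.0353). In each case HXP 6 was lowest and HXP 4 highest of the 3. Junb (62.7% GC) and Klf2 (61.6% GC) lost the call after GC correction (0.112 and 0.199), no member was called without HXP 5, and 1 was called without HXP 6 or control 4. Fos and Atf3 did not pass, at 0.92, 1.35 and 0.249 FPKM against 0.703 to 2.51 FPKM for Fos (a log2 change of -0.34 ± 0.26 SE at a limma adjusted p of 0.534) and 1.61, 2.23 and 1.57 FPKM against 1.02 to 2.19 FPKM for Atf3 (a log2 change of 0.11 ± 0.16 SE at a limma adjusted p of 0.768).

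Of 19 genes of defence against oxidants above the filter 3 fell, against 5.44% of all genes. The same 3 were called after GC correction (3.14% of all genes) and without HXP 6 (3.34%). Gpx1, the main cytosolic glutathione peroxidase (ENSMUSG00000063856, chromosome 9, 108338903 to 108340343), stood at 19.5 (HXP 4), 6.42 (HXP 5) and 1.19 FPKM (HXP 6), against 23 to 39.5 FPKM in the 6 controls (median 37.5) (a log2 change of -2.37 ± 0.53 SE at a limma adjusted p of 0.0313). HXP 1, 2 and 3, at 42.8, 66.1 and 69.1 FPKM, and MI, at 39.1 to 84.3 FPKM, stood above all 3. Its log2 fold change ran from -3.15 without HXP 4 to -1.54 without HXP 6, and the call was lost without control 1, 3, 4, 5 or 6 or HXP 5 (0.0618 to 0.104). Cbr1, a carbonyl reductase gene, was steadier, at 9.44, 8.03 and 7.45 FPKM against 12.1 to 15.2 FPKM (a log2 change of -0.72 ± 0.10 SE at a limma adjusted p of 0.00393), and was called without each library in turn. Blvrb, which encodes biliverdin reductase B, stood at 1.83, 1.47 and 0.894 FPKM against 2.38 to 2.98 FPKM (a log2 change of -0.66 ± 0.12 SE at a limma adjusted p of 0.0135) and lost the call without HXP 5 (0.0548). Of 17 glutathione transferase genes Gsto1 fell (39.8, 39.4 and 42.2 FPKM against 49.2 to 55.3 FPKM, a log2 change of -0.38 ± 0.07 SE at a limma adjusted p of 0.012) and Gsta3 rose (1.55, 1.46 and 1.21 FPKM against 0.687 to 1.04 FPKM, a log2 change of 0.38 ± 0.08 SE at a limma adjusted p of 0.0296). Gsta3 missed the threshold after GC correction (0.0559) and without control 1, 3, 4 or 6 or HXP 4 or 5 (0.0572 to 0.114), and Gsto1 missed it without HXP 5 (0.0588). Gstm1 stood at 100.3, 73.9 and 93.7 FPKM against 69.5 to 93.8 FPKM (a log2 change of 0.14 ± 0.12 SE at a limma adjusted p of 0.575). Ces1d, a carboxylesterase gene, stood at 44.2, 29.4 and 60.4 FPKM against 32.7 to 43.9 FPKM (a log2 change of 0.13 ± 0.19 SE at a limma adjusted p of 0.753).

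Gpr146, an orphan G protein-coupled receptor gene (ENSMUSG00000044197, chromosome 5, 139377697 to 139396415), fell in all 3 hearts. It has 53.9% GC and 6786 exonic bases. It stood at 0.515 (HXP 4), 0.336 (HXP 5) and 0.599 FPKM (HXP 6), against 2.96 to 12.5 FPKM in the 6 controls (median 9.16). The 3 values lay close together and all lay below the lowest control, while the controls themselves spread widely. Its log2 change came to -2.58 ± 0.33 SE (limma adjusted p of 0.00345, and 0.00416 after GC correction), and -2.81 to -2.46 with each library left out, always called. With the run as a covariate it was -2.68 at a limma adjusted p of 0.0524. The gene stood at 2.34, 0.615 and 4.04 FPKM in HXP 1, 2 and 3, and at 4.51 to 10.7 FPKM in the 6 MI libraries (median 7.49). With all 6 HXP libraries its log2 fold change was -2.07 (limma adjusted p = 0.0905).

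Hopx, a homeodomain gene of heart muscle cells and of the lung epithelium (ENSMUSG00000059325, chromosome 5, 77086988 to 77115121), fell as well, at a GC content of 46.4%. It stood at 61.9 (HXP 4), 17.7 (HXP 5) and 12 FPKM (HXP 6), against 136 to 155 FPKM in the 6 controls (median 149) (a log2 change of -2.58 ± 0.38 SE at a limma adjusted p of 0.00648, and 0.00526 after GC correction). It stood at 137, 55.5 and 26.5 FPKM in HXP 1, 2 and 3. Mif, the cytokine gene macrophage migration inhibitory factor (ENSMUSG00000033307, chromosome 10, 75859353 to 75860240), stood at 28.8, 5.35 and 3.27 FPKM in HXP 4, 5 and 6 against 51.5 to 64 FPKM in the 6 controls (median 57.8) (a log2 change of -2.65 ± 0.48 SE at a limma adjusted p of 0.0135). HXP 1, 2 and 3 lay much nearer to control, at 57.3, 47.7 and 49.6 FPKM, and the call of Mif was lost without HXP 5 (0.0733). Rex1bd (ENSMUSG00000058833, chromosome 8, 70504292 to 70506752) stood at 3.33, 0.87 and 0.507 FPKM against 8.17 to 16.3 FPKM in the 6 controls (median 11.3) (a log2 change of -2.47 ± 0.30 SE at a limma adjusted p of 0.00299, and 0.00119 after GC correction). For Hopx, Mif and Rex1bd alike HXP 6 was lowest and HXP 4 highest of the 3, and all 3 values lay below every control.

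**Figure D4:**
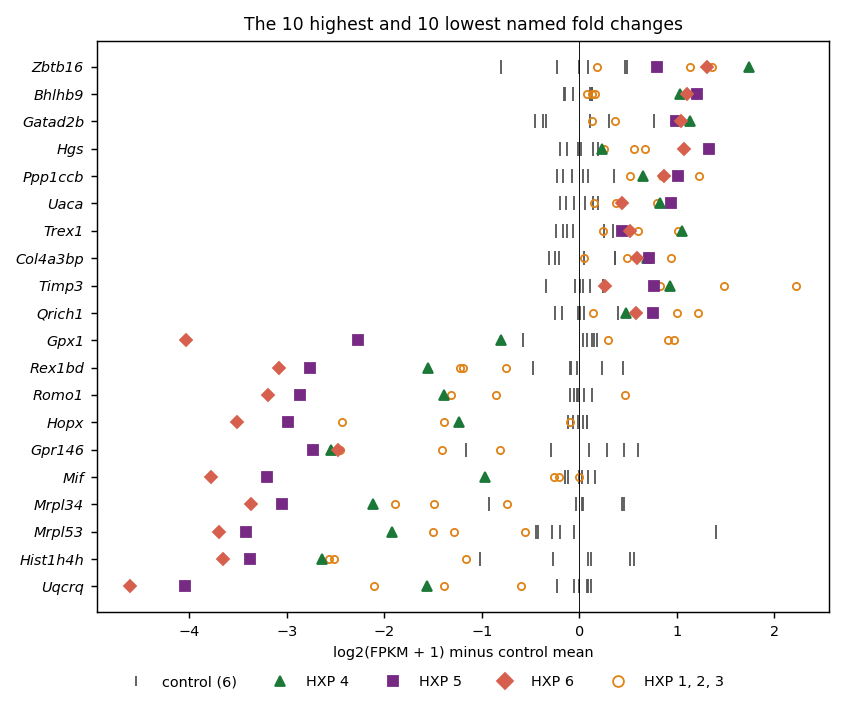
Difference of log2(FPKM + 1) from the control mean, by library, for the 10 highest and 10 lowest log2 fold changes named by rule. Bhlhb9 at 1.12 and Gpr146 at -2.58 are nearly the same in HXP 4, 5 and 6, while for Uqcrq, Mif and Gpx1 HXP 4 lies nearer to the controls than HXP 5 and HXP 6.

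Few genes rose in all 3 hearts. Bhlhb9, an X-linked gene of the GPRASP family (ENSMUSG00000072964, chromosome X, 135797594 to 135891081), had the lowest adjusted p of the higher genes named by rule. It stood at 3.19 (HXP 4), 3.73 (HXP 5) and 3.4 FPKM (HXP 6), against 0.832 to 1.24 FPKM in the 6 controls (median 1.08), and at 1.23, 1.16 and 1.29 FPKM in HXP 1, 2 and 3 and 0.929 to 1.55 FPKM in the 6 MI libraries (median 1.32). Its log2 change came to 1.12 ± 0.10 SE (limma adjusted p of 0.0012, and 0.000191 after GC correction), 1.22 within the run of HXP 4 and 6 and 1.14 within that of HXP 5. It was called without each library in turn and with the run as a covariate (0.0181). Its span overlaps those of Gprasp1 and Gprasp2 on the same strand, with which it may share reads. With all 6 HXP libraries its log2 fold change was 0.62 (limma adjusted p = 0.144).

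Zbtb16, a zinc finger factor known as a target of glucocorticoids (ENSMUSG00000066687, chromosome 9, 48654297 to 48836222), stood first among the higher genes by log2 fold change. It stood at 20.1 (HXP 4), 9.96 (HXP 5) and 14.6 FPKM (HXP 6), against 2.61 to 7.83 FPKM in the 6 controls (median 5.5) (a log2 change of 1.28 ± 0.29 SE at a limma adjusted p of 0.032, and 0.0256 after GC correction). It stood at 12.8, 6.15 and 15.2 FPKM in HXP 1, 2 and 3 and at 2.41 to 20.2 FPKM in the 6 MI libraries (median 7.05), ranges that overlap both groups. The call was lost without control 1, 5 or 6 or HXP 4, 5 or 6 (0.0546 to 0.0677). Of the 20 glucocorticoid and FoxO targets it was the 1 that rose. Gadd45a, a growth arrest gene, was the 1 that fell, at 5.49, 4.88 and 4.47 FPKM against 7.15 to 11 FPKM (a log2 change of -0.75 ± 0.14 SE at a limma adjusted p of 0.0148), and it lost the call after GC correction (0.133) and without HXP 5 (0.067). Fkbp5, a chaperone of the glucocorticoid receptor, stood at 7.51, 3.95 and 2.31 FPKM against 1.5 to 5.43 FPKM and did not pass (a log2 change of 0.75 ± 0.34 SE at a limma adjusted p of 0.271).

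The other 8 higher genes named by rule had log2 fold changes of 0.60 to 1.05. Ppp1ccb, a copy related to the phosphatase gene Ppp1cc with which it may share reads, stood at 8.42, 11.1 and 9.92 FPKM against 4.09 to 6.64 FPKM in control (a log2 change of 0.84 ± 0.13 SE at a limma adjusted p of 0.00819). It was called with the run as a covariate (0.0429) and missed the threshold without HXP 5 (0.0505). Uaca stood at 10.2, 11.1 and 7.52 FPKM against 4.49 to 6.18 FPKM (a log2 change of 0.74 ± 0.13 SE at a limma adjusted p of 0.0122), and missed it without HXP 5 (0.0655). Timp3, another metalloproteinase inhibitor gene, stood at 51.7, 45.9 and 32.2 FPKM against 20.8 to 31.7 FPKM (a log2 change of 0.65 ± 0.16 SE at a limma adjusted p of 0.0409), and at 47.9, 76.1 and 128 FPKM in HXP 1, 2 and 3. Gatad2b, of the NuRD chromatin complex, stood at 3.79, 3.33 and 3.48 FPKM against 0.587 to 2.69 FPKM (a log2 change of 1.05 ± 0.25 SE at a limma adjusted p of 0.0369, but 0.0507 after GC correction). Col4a3bp, the ceramide transfer protein gene, stood at 6.07, 6.2 and 5.58 FPKM against 2.52 to 4.63 FPKM (a log2 change of 0.67 ± 0.17 SE at a limma adjusted p of 0.0461, but 0.0815 after GC correction). Trex1, a DNA exonuclease gene whose span overlaps that of Atrip, had a log2 fold change of 0.67 (limma adjusted p = 0.0498) and Qrich1 of 0.60 (0.0304). Hgs, an endosomal sorting gene, had 0.88 (0.035) by 1 identifier, at 1.25, 3.78 and 3.01 FPKM against 0.662 to 1.18 FPKM in control. A second identifier of the gene at the same place stood at 6.4, 1.28 and 0.228 FPKM against 5.85 to 8.15 FPKM in control. In HXP 5 and HXP 6 the second fell by more FPKM than the first rose, so a rise of Hgs as a whole is not shown. Gatad2b, Col4a3bp and Qrich1 overlap predicted genes on the same strand, with which they may share reads. Without 1 library the calls of Timp3, Gatad2b, Col4a3bp, Trex1, Hgs and Qrich1 were lost for 6 to 8 of the 9 libraries, always including HXP 5 (0.0526 to 0.154).

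A pair of clock genes rose. The clock runs as a loop in which CLOCK and ARNTL switch on the Per, Cry and Nr1d genes, whose products then hold them back. Of 13 core clock genes above the filter 1 rose, of 12 output genes 1 rose, and none fell. Wee1, a clock-controlled kinase that holds back cell division (ENSMUSG00000031016, chromosome 7, 110122046 to 110143286), stood at 5.53 (HXP 4), 4.98 (HXP 5) and 4.47 FPKM (HXP 6), against 2.47 to 3.34 FPKM in the 6 controls (median 3.13) (a log2 change of 0.56 ± 0.09 SE at a limma adjusted p of 0.01, and 0.0101 after GC correction). It stood at 6.63, 3.89 and 8.61 FPKM in HXP 1, 2 and 3, and missed the threshold without HXP 5 (0.0523). Nr1d2, a nuclear receptor of the clock's repressor arm, stood at 29, 27.4 and 29.2 FPKM against 19.97 to 24.3 FPKM (a log2 change of 0.36 ± 0.08 SE at a limma adjusted p of 0.0281) and missed the threshold after GC correction (0.0636) and without control 1, 3 or 4 or HXP 5 or 6 (0.0555 to 0.0774). Per2, a repressor of the loop, stood at 6.82, 3.71 and 4.37 FPKM against 1.14 to 3.22 FPKM, all 3 above every control, with a limma adjusted p of 0.0742 as deposited and 0.0406 after GC correction (log2 fold change 0.77, SE 0.22). Per3 (0.50, 0.117), Hlf (0.75, 0.0562) and Dbp (0.05, 0.943) did not pass, by their log2 fold changes and limma adjusted p. Arntl, the activator itself, lay below the filter, at 0.15, 0.35 and 0.133 FPKM against 0.269 to 1.02 FPKM, and was not tested. HXP 4 stood above all controls for 8 of the 13 core genes, HXP 5 for 4 and HXP 6 for 5, against 23.5%, 28.7% and 9.05% of all genes, so the count in HXP 5 was near the share of all genes. The hour at which hearts were taken is not given in the sources used here, and its part in these values was not tested.

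The stress program of the heart muscle had no called member, and it divided the 3 hearts less sharply than the matrix genes did. None of its 15 members above the filter passed by limma. Without HXP 6, 5 were called higher, against 2.80% of all genes in that fit. HXP 4 stood above all controls for 5 of the 15 and below them for 2, and HXP 5 stood above them for 11. HXP 6 stood below them for 7. Over all genes these shares were 23.5% and 20.1% for HXP 4, 28.7% for HXP 5 and 41.0% for HXP 6. Nppa, atrial natriuretic peptide (ENSMUSG00000041616, chromosome 4, 148000722 to 148002079), stood at 884 (HXP 4), 1286 (HXP 5) and 88.3 FPKM (HXP 6), against 89.8 to 348 FPKM in the 6 controls (median 151) (a log2 change of 1.43 ± 0.75 SE at a limma adjusted p of 0.333). Without HXP 6 its log2 fold change was 2.62 at a limma adjusted p of 0.00953. Myh7, the beta myosin heavy chain, stood at 141, 101 and 45.5 FPKM against 37.6 to 64.8 FPKM (a log2 change of 0.77 ± 0.30 SE at a limma adjusted p of 0.177), and without HXP 6 at a log2 fold change of 1.23 (0.00743). Nppb, the B-type peptide, was high in HXP 5 alone, at 181, 536 and 133 FPKM against 89.2 to 307 FPKM (a log2 change of 0.49 ± 0.45 SE at a limma adjusted p of 0.61). Acta1, skeletal alpha actin, stood at 186, 238 and 124 FPKM against 110.4 to 410.4 FPKM (a log2 change of 0.17 ± 0.40 SE at a limma adjusted p of 0.86). For Nppa and Myh7 HXP 6 lay within or just below the control range, while HXP 4 and HXP 5 lay above it. HXP 5 also held atrial transcripts: Myl7, the atrial light chain, stood at 19 FPKM there, 0 in HXP 4 and HXP 6 and at most 1.22 in control. Sln, an atrial calcium pump regulator, stood at 6.13 FPKM in HXP 5 and at most 0.262 in control. The mean of the atrial list was 2.53 on the log2 scale in HXP 5, 1.90 in HXP 4, 1.32 in HXP 6 and 1.52 to 1.70 in control. Nppa is itself a member of that list, so its mean is not separate from the Nppa level. What part atrial tissue has in the Nppa level of HXP 5 was not tested.

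The contractile list had 2 lower genes of 21 and a median log2 fold change of -0.03. They were Myl3, the ventricular essential light chain, at 1315 (HXP 4), 740.5 (HXP 5) and 679.5 FPKM (HXP 6) against 1571 to 1976 FPKM in the 6 controls (median 1828) (a log2 change of -1.04 ± 0.18 SE at a limma adjusted p of 0.0127), and Tcap, a titin cap protein gene, at 775, 367 and 343 FPKM against 873 to 1508 FPKM (a log2 change of -1.14 ± 0.26 SE at a limma adjusted p of 0.0315). Myl3 lost its call without HXP 5 (0.0693). Tcap lost it after GC correction (0.102) and without control 1, 2, 3, 4, 5 or 6 or HXP 5 or 6 (0.0513 to 0.137). Ckm, muscle creatine kinase, which heart muscle shares with skeletal muscle, fell in all 3, at 454, 321 and 296 FPKM against 597 to 676 FPKM (a log2 change of -0.84 ± 0.12 SE at a limma adjusted p of 0.00569), and was called without each library in turn and after GC correction (0.0044). Myh6 had a log2 fold change of -0.16 (limma adjusted p = 0.563), Tnnt2 of 0.08 (0.708), Ryr2, the calcium release channel, of 0.01 (0.987) and Atp2a2, the calcium pump, of -0.03 (0.903). Of 21 ion channel genes 1 fell, Kcnj11, the pore of the muscle's ATP-sensitive potassium channel, at 28.4, 22.5 and 22.9 FPKM against 31.8 to 39.8 FPKM (a log2 change of -0.52 ± 0.10 SE at a limma adjusted p of 0.0177). It lost the call after GC correction (0.333) and without HXP 5 (0.0868).

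Most lists of other cells' markers had their lowest mean of the 3 hearts in HXP 6. The mean of the macrophage list was 2.35 (HXP 4), 2.30 (HXP 5) and 1.56 (HXP 6) on the log2 scale, against 1.94 to 2.19 in control, and none of its 25 members above the filter passed by limma. HXP 6 was likewise below every control in the means of the endothelial list (3.41 against 3.71 to 4.15), the smooth muscle and pericyte list (3.59 against 4.01 to 4.25) and the interferon list (1.61 against 1.96 to 2.51). By gene it lay below every control for 11 of 20, 11 of 15 and 21 of 27 members, against 41.0% of all genes. Lists that mark no cell type also had means below every control in HXP 6, such as glycolysis (5.23 against 5.32 to 5.38). For glycolysis HXP 4, at 5.29, and HXP 5, at 5.27, lay below every control as well. In the interferon list HXP 4, at 1.94, also lay below every control. Of 20 endothelial genes Cldn5, a tight junction gene, fell, at 3.58, 3.61 and 1.18 FPKM against 5.97 to 17.5 FPKM (a log2 change of -1.64 ± 0.34 SE at a limma adjusted p of 0.0229), but not without HXP 5 or HXP 6 (0.0537 to 0.0602). Of 15 smooth muscle and pericyte genes Kcnj8, the pericyte potassium channel, fell evenly, at 11.4, 11.5 and 10.04 FPKM against 15.1 to 19.2 FPKM (a log2 change of -0.58 ± 0.09 SE at a limma adjusted p of 0.00723, and 0.00264 after GC correction), and was called without each library in turn. Of 27 interferon genes Bst2, an antiviral membrane protein gene, fell, at 10.9, 10.9 and 3.47 FPKM against 17.7 to 36.9 FPKM (a log2 change of -1.56 ± 0.33 SE at a limma adjusted p of 0.0257), and lost the call without control 1, 3 or 4 or HXP 5 (0.0513 to 0.0586). The skeletal muscle list had a mean of 1.89 in HXP 5 and 1.00 to 1.14 in control. The adipocyte list had means of 1.58, 2.09 and 1.17 in HXP 4, 5 and 6, against 1.17 to 1.39 in control, with Adipoq, a hormone of fat cells, at 0.581, 4.02 and 0 FPKM against at most 0.222 FPKM in control. The mesothelial list had 0.94, 1.18 and 0.22, against 0.26 to 0.51 in control. Nothing was called in the lists for macrophages, MHC class II, chemokines, T and NK cells, B cells, neutrophils, red cells, fat, atrium, mesothelium, nerve, liver, thymus, cell cycle or nuclear long non-coding RNAs. Some of those counts of 0 rest on HXP 6: without it, where 2.80% of all genes were higher, 5 macrophage genes, 3 B cell genes, 3 fat genes, 2 each for chemokines, atrium and mesothelium, and 1 each for MHC class II, liver and long non-coding RNAs were called higher. Whether the share of these cells has a part in any other change was not tested.

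**Figure D5:**
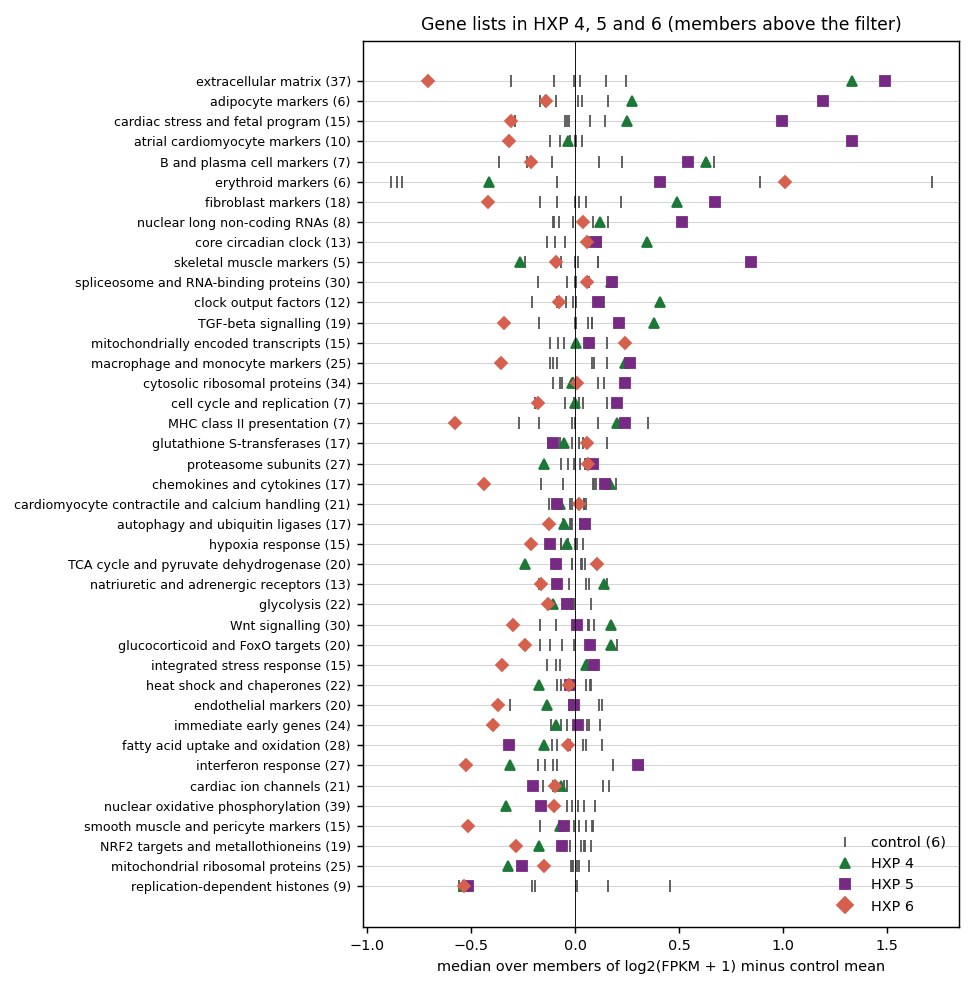
Median over the members of each list of the difference of log2(FPKM + 1) from the control mean, in HXP 4, 5 and 6 and in single controls, with the number of members above the filter in parentheses. The matrix list spreads from -0.71 in HXP 6 to 1.49 in HXP 5, while the histone and mitochondrial ribosome lists lie below 0 in all 3.

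The remaining lists held 1 or 2 called genes each. Psmb5, a catalytic subunit of the proteasome, was the 1 lower of 27 proteasome genes and one of the most even changes, at 46.3, 44.6 and 45.8 FPKM against 67.6 to 74.8 FPKM (a log2 change of -0.63 ± 0.06 SE at a limma adjusted p of 0.00154, and 0.047 after GC correction). It stood at 105, 69.7 and 68 FPKM in HXP 1, 2 and 3, was called without each library in turn, and was called with the run as a covariate (0.0349). Of 34 cytosolic ribosomal protein genes Rplp1 (326, 148 and 63.6 FPKM against 446 to 531 FPKM, a log2 change of -1.72 ± 0.38 SE at a limma adjusted p of 0.0288) and Rpl8 (-0.70, 0.0296) fell. Of 30 Wnt genes the receptor gene Fzd8 (-0.59, 0.0463) and Dvl1, which relays its signal, (-0.97, 0.0468) fell, a share near the 5.44% of all genes. Without HXP 6 the direction of the Wnt calls turned, with 5 members higher (Dkk3, Sfrp1, Sfrp2, Frzb and Fzd1) and 0 lower. Calls over all genes moved the same way, to 2.80% higher and 3.34% lower without HXP 6, from 0.392% and 5.44% with it. Clk4, a splicing kinase gene, rose (0.33, 0.0374), and Adm, the vasodilator adrenomedullin (-0.46, 0.0488), Hspb8, a small heat shock protein gene (-0.34, 0.0349), the adrenergic receptor gene Adra1b (-0.76, 0.0477) and Tfeb, a lysosomal regulator (-0.99, 0.0498), fell, each given by its log2 fold change and limma adjusted p. Fzd8 and Rplp1 were called after GC correction, and Rpl8, Dvl1, Clk4, Adm, Hspb8, Adra1b and Tfeb were not (0.0574 to 0.155). Each of these except Psmb5 lost the call without HXP 5 and without 5 to 8 of the other libraries, at limma adjusted p of 0.0529 to 0.185.

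Of 76 called genes that are named by rule or belong to a list, 21 were called without each of the 9 libraries in turn, and 10 were called with the run as a covariate. The 9 that held under both were Bhlhb9, which rose, and Atf5, Atp5g3, Cbr1, Hist1h4h, Mrpl34, Mrpl4, Mrps12 and Psmb5, which fell. All but Mrpl4 were also called after GC correction. When all 6 HXP libraries were set against the 6 controls by their label, limma called 5 of 13396 genes (0.0373%), with 3698 at an unadjusted p below 0.05. Of the 21 genes named by rule that were called in HXP 4, 5 and 6, only Hist1h4h was among those 5. Both fits share the 6 controls and also HXP 4, 5 and 6, so they are not independent.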

How the data were processed

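Expression values came from 18 heart libraries (6 control, 6 MI, 6 HXP), 1 value per gene and library. The values deposited by the authors are read here as FPKM: the files name no unit, and the unit was inferred from the values, which step in whole reads per gene length. Per the labels' protocols, total RNA was extracted from frozen tissue and ribosomal RNA was depleted. Per the submitters' processing notes GRCm38 and limma were used. The name of an aligner or counter is not given in the sources used here. Whether reads were counted by strand is not stated, so a gene and an antisense partner cannot be told apart. Of 34150 identifiers 34057 matched GENCODE M21, and 93 did not.

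The filter kept genes that averaged 0.5 FPKM or more across the 9 libraries, and log2(FPKM + 1) was tested with limma 3.58.1 in R 4.3.3 (trend, 2-sided, Benjamini-Hochberg adjustment over all genes tested, threshold 0.05), 3 libraries against 6, with 7 residual degrees of freedom. A fold change on this scale understates that of low genes. The fit was tested on simulated data. The reads recovered per library were 75.8 to 81.1 M, and of values under 100 reads 97.7% to 98.1% came out whole within 0.1. Runs are the 3 ranges into which the library numbers in the deposited names fall. Genes were named by rule: a fixed set, the called genes ranked in the top 10 or bottom 10 by log2 fold change that averaged 1 FPKM or more, outside predicted names and matrix-linked lists and with all 3 libraries on one side of the controls, and up to 4 members of a list in order of p. Other list members given with values were chosen after their values were seen. The libraries, the 48 lists and the tests were chosen with earlier results of these data known.

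Alternatives were other filters, pseudocounts and scalings, a robust prior, a fit over 4 groups, all 6 HXP libraries, the replicate number or the run in the fit, single runs and left-out libraries. Correction for GC content (lowess, span 0.3) and for GC content with length was added after seeing the data.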

Additional observations from a re-analysis of the deposited data

Results flagged for a closer look

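Among 36 genes named by rule that were screened in the 6 controls, 4 had a control library far from the other 5, past the critical value of Dixon's test. Chance flags about 1 in 20 groups. Acta1, skeletal alpha actin, stood at 410.4 FPKM in control 1, and the next control stood at 193 FPKM. Per2, a clock repressor, stood at 1.14 FPKM in control 3 and at 2.45 FPKM in the next control. Mrpl53 stood at 44.7 FPKM in control 2, against 15.7 FPKM in the next control. Gpx1 stood at 23.0 FPKM in the same library, against 35.9 FPKM in the next.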

How the results depend on the processing

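As deposited, limma called 744 genes, 50 higher and 694 lower. With 1 library left out these counts ran from 184 (without HXP 5) to 1527 (without HXP 4) in all, from 8 (without HXP 5) to 359 (without HXP 6) higher and from 176 (without HXP 5) to 1472 (without HXP 4) lower. With no filter on low values 388 genes were called, 336 of them lower. At a mean of at least 5 FPKM 31 were higher, in the fit over 4 groups 21, after median-ratio scaling 105, and after quantile normalization 248. Scaling to non-mitochondrial FPKM gave 220 higher and 462 lower genes. Correction for GC content gave 136 and 400, for GC content and length 160 and 388, and for GC content without HXP 6 436 and 432. With the run as a covariate 60 were called, 7 higher and 53 lower. Within the run of HXP 4 and HXP 6 limma called 0 higher and 0 lower, with 239 at an unadjusted p below 0.05, and within that of HXP 5 227 were higher. All 6 HXP libraries gave 5 calls, 0 higher and 5 lower. Why these counts differ was not tested.

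With the replicate number as a block limma called 0 genes, 0 higher and 0 lower (1542 at an unadjusted p below 0.05, 2 residual degrees of freedom), and likewise 0 with the block and GC correction together. Deviations from the group means were correlated across genes between the HXP and the control library of each shared number. The correlation was 0.0375 for number 4, -0.143 for number 5 and 0.0165 for number 6. Pairs of different numbers ran from -0.177 (HXP 6 with control 4) to 0.202 (HXP 6 with control 2). The labels do not say what the number stands for, so these values cannot decide whether it pairs the libraries.

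Among single genes, the 76 called ones named by rule or in a list kept their sign under every scaling tried. Only genes that did not pass changed sign, by these log2 fold changes. Ces1d was at -0.31 with all 6 HXP libraries, -0.35 within the run of HXP 5, -0.11 without HXP 6 and -0.18 with GC correction as well. Fos was at 0.40 with all 6 HXP libraries, 0.0033 with the replicate block, 0.19 with block and GC correction, and 0.083 within the run of HXP 5. Acta1 was at -0.28 with the run as a covariate, and ran from -0.044 (without HXP 5) to 0.45 (without control 1) with 1 library left out. Within the run of HXP 4 and HXP 6 Acta1 was at -1.43, Nppa at -0.31, Nppb at -0.44, Atf3 at -0.12 and Myh6 at 0.048. Nppb ran from -0.10 (without HXP 5) to 0.90 (without HXP 6). Myh6 was at 0.029 after GC correction, 0.013 after GC and length correction and 0.022 with GC correction and block. Gstm1 was at -0.017 within the run of HXP 5. Dbp was at -0.077 without control 4 and ran from -0.21 (without HXP 4) to 0.21 (without control 5).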

Other observations

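A pair of gene identifiers for Nnt, the mitochondrial transhydrogenase, lies at one place on chromosome 13 and divides the libraries without regard to the groups. One of them was listed at 0 in control 4, 5 and 6, MI 3, 4 and 6 and HXP 3 and 4, and stood at 77.6 to 201 FPKM in all others. The other stood at 43.8 to 106 FPKM in the first set of libraries and at 2.01 to 5.35 FPKM in the rest. HXP 4 thus differed from HXP 5 and HXP 6 at this gene.

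Of the called genes, 17 of the 50 higher and 56 of the 694 lower ones carry predicted-gene names and were left out of the named genes.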
